A study of Rattus norvegicus with 6 samples.

Results

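Lcn2 (ENSRNOG00000013973) and C3 (ENSRNOG00000046834) are 2 genes of the acute-phase response, taken from 32883 Ensembl gene identifiers counted in rat bone marrow mesenchymal stem cells. They were selected by identifier, and Lcn2 was chosen by its measured fall in the 3D Nichoid, so its values and those of C3 in the same contrast are given as a description, without a test. The deposited counts do not pair identifiers with symbols, and these 2 symbols came with the selection. Primary rBMSCs from Lewis rats, kept for 2 passages, were grown until day 4 on one of 2 laser-polymerized scaffolds seeded with the same number of cells. In the 3D Nichoid (3 libraries, A, B and C) the grid is stacked into niches that cells enter, while the 2D Nichoid (3 libraries, A, B and C) carries the same grid on a single level and was the flat control. The sources name no allele, drug or added factor that separated the groups. Both shared the culture medium, which contained fetal bovine serum, and the scaffold material. The labels do not say whether the libraries of a group came from separate cultures or animals, so their spread may be technical. The cell type named in the labels was not checked against marker genes here, since the markers could not be matched to identifiers.

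The acute-phase response is the change in secreted proteins that follows infection, injury or inflammatory cytokines. Lcn2 encodes lipocalin 2, a small secreted protein that binds bacterial siderophores and so withholds iron from bacteria. It is stored in neutrophil granules and is also made by epithelial cells, adipocytes and mesenchymal cells exposed to interleukin 1 or tumour necrosis factor. C3 encodes complement component C3, the protein on which the classical, lectin and alternative pathways of complement converge. Its cleavage releases the anaphylatoxin C3a and leaves C3b, which attaches to surfaces and marks them for uptake. Most circulating C3 comes from the liver, and mesenchymal cells and adipocytes secrete it locally. Transcription of both genes is known to respond to NF-kappaB and to C/EBP factors.

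The promoters of both members are shown as a description of sequence, and a link to the difference between the groups was not tested. Each window runs from 250 bases before to 50 bases after the annotated start of transcription, on build GRCr8 of RefSeq, 5′ to 3′ on the strand of the gene. Lcn2 lies on the minus strand of chromosome 3, window chr3:36081731-36082030, and its start in this window is 71 bases inside the outermost end annotated for the gene. C3 lies on the minus strand of chromosome 9, window chr9:2201290-2201589. Capitals mark matches to the NF-kappaB motif GGGANNNNCC or the C/EBP motif TTNNGNAA, on either strand.
Lcn2: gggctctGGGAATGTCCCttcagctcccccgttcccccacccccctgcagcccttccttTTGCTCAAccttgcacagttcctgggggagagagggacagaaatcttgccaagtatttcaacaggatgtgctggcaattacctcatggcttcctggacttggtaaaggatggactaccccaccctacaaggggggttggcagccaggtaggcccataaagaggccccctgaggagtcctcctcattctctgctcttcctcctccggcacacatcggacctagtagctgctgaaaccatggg
C3: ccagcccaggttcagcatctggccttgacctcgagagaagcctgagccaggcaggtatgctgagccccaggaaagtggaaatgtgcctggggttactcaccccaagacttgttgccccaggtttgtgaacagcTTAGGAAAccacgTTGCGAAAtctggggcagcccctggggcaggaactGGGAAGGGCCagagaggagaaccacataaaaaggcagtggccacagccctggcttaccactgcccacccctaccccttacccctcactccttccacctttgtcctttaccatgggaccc

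Both windows held a match to each of these motifs, at different distances from the start. In Lcn2 the NF-kappaB motif matched on both strands, at 243 and 242 bases before the start, and the overlapping matches read GGGAATGTCC and GGAATGTCCC on the strand shown. A C/EBP match, TTGCTCAA, lay 191 bases before the start of Lcn2. In C3 the NF-kappaB match, GGGAAGGGCC, was 69 bases before the start. The C/EBP motif of C3 matched as TTAGGAAA at 117 bases and as TTGCGAAA at 104 bases before the start, the latter on both strands. Such matches were not rare, since 19.3% of the 33469 promoter windows of the table held the NF-kappaB motif and 41.3% held the C/EBP motif. The STAT motif TTCNNNGAA (in 8.87% of all windows), the AP-1 motif TGANTCA (7.33%) and the letters TATAAA (14.2%) were not found in either window. The G and C content was 57.3% in Lcn2 and 58.3% in C3, against a median of 51.7% over all windows. A match describes the letters and does not show that a factor binds there.

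**Figure D1:**
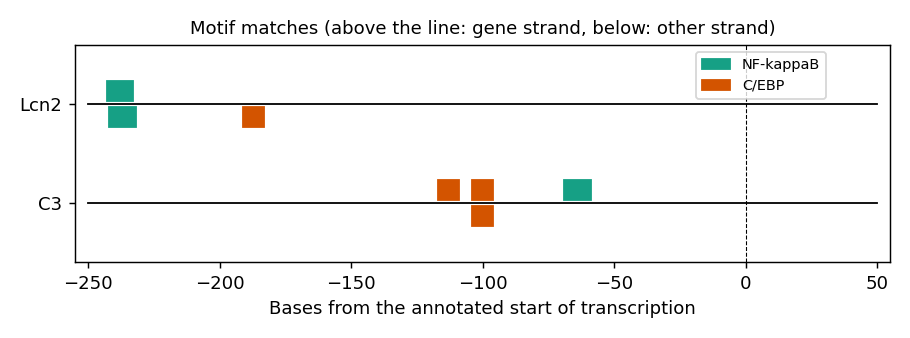
Positions of motif matches in the promoter windows of Lcn2 (top) and C3 (bottom), in bases from the annotated start of transcription (dashed line). Boxes above a line are on the strand of the gene and boxes below on the other strand. Both genes hold NF-kappaB and C/EBP matches, with those of Lcn2 farther from the start than those of C3.

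Lcn2 was low in every 3D Nichoid library and high in every 2D Nichoid library. In 3D Nichoids, replicate A held 66 reads of Lcn2, replicate B 61 and replicate C 74, whereas in 2D Nichoids the replicates held 737, 808 and 851 reads. The highest 3D Nichoid library was far below the lowest 2D Nichoid library. Scaled for library size and composition with TMM, the factor of edgeR that sets the libraries on one scale, these counts came to 1.64, 1.63 and 1.91 CPM, counts per 1000000 counts of the library, in 3D Nichoids, while the 2D Nichoid libraries reached 18.6, 20.4 and 20.9. The means were 1.73 ± 0.159 (SD, n = 3) in 3D Nichoids and 19.96 ± 1.24 (SD, n = 3) in 2D Nichoids. The log2(FC) fitted by edgeR, 3D against 2D Nichoids, was -3.53 (SE 0.15). The level in 2D Nichoids was thus 11.6-fold that in 3D Nichoids, with a range of 10.4 to 12.8 for 1 SE on either side. When each 2D Nichoid library was set against each 3D Nichoid library, the fold ranged from 9.73 to 12.9.

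C3 showed the same order of the groups, at counts close to those of Lcn2. In 3D Nichoids, replicate A held 86 reads of C3, replicate B 83 and replicate C 79, whereas in 2D Nichoids the replicates held 949, 787 and 961 reads. No 3D Nichoid library came near the 2D Nichoid libraries, of which replicate B was the lowest. In TMM-scaled CPM the levels were 2.13, 2.21 and 2.04 for the 3D Nichoid libraries, against 23.9, 19.8 and 23.7 for the 2D Nichoid libraries. The means were 2.13 ± 0.0887 (SD, n = 3) and 22.5 ± 2.29 (SD, n = 3). The log2(FC) was -3.40 (SE 0.14), which put the 2D Nichoid level at 10.5-fold the 3D Nichoid level, from 9.56 to 11.6 for 1 SE on either side. Single 2D Nichoid libraries exceeded single 3D Nichoid libraries by 8.95-fold to 11.7-fold. What remained in 3D Nichoids was 8.66% of the 2D Nichoid level for Lcn2 and 9.49% for C3. In bulk RNA, fewer cells that transcribe a gene and less RNA per cell cannot be told apart.

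**Figure D2:**
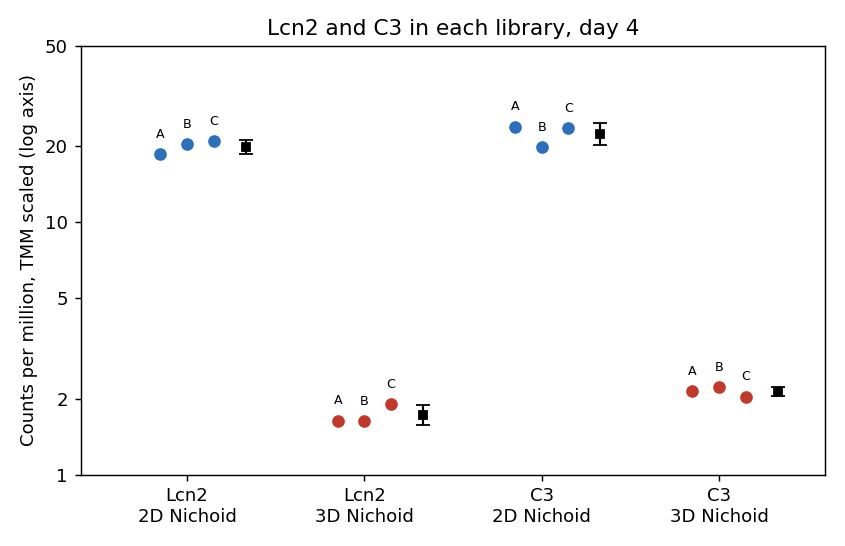
Lcn2 and C3 in CPM, TMM scaled, on a log axis, with 1 point per library lettered by replicate and, beside the points, a square for the mean and a bar for the SD (n = 3). The 3D Nichoid libraries lie between 1.63 and 2.21 CPM and the 2D Nichoid libraries between 18.6 and 23.9.

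The study called a DEG with DESeq2, with the adjusted p value held to 0.05 and the log2(FC) beyond 1 in size. Both members met these cutoffs in the edgeR fit used here, whose calls are not those of the study. Nothing further follows from this, since Lcn2 was chosen by this contrast and C3 was taken up with its results known. In that direction 1.37% of the 13523 tested genes did so (185 genes, edgeR quasi-likelihood test with Benjamini-Hochberg adjustment). With the adjusted p value of that test alone, 5109 tested genes met the cutoff, in either direction. How many tested genes had groups without overlap, as Lcn2 and C3 did, was not counted. By log2(FC), Lcn2 was the 8th lowest and C3 the 9th lowest of all tested genes. Of the 7 genes below them, 6 had a mean normalized count under 50, where a fold change rests on few reads. Among the 130 DEGs lower in 3D Nichoids with a mean of at least 50, Lcn2 and C3 were at ranks 2 and 3 by log2(FC), with means of 426 and 483 normalized counts. Only 10 of the 11605 genes with such a mean had a log2(FC) under -2, and only 3 under -3. Over all tested genes the log2(FC) had a median of -0.006, and a median size of 0.21.

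**Figure D3:**
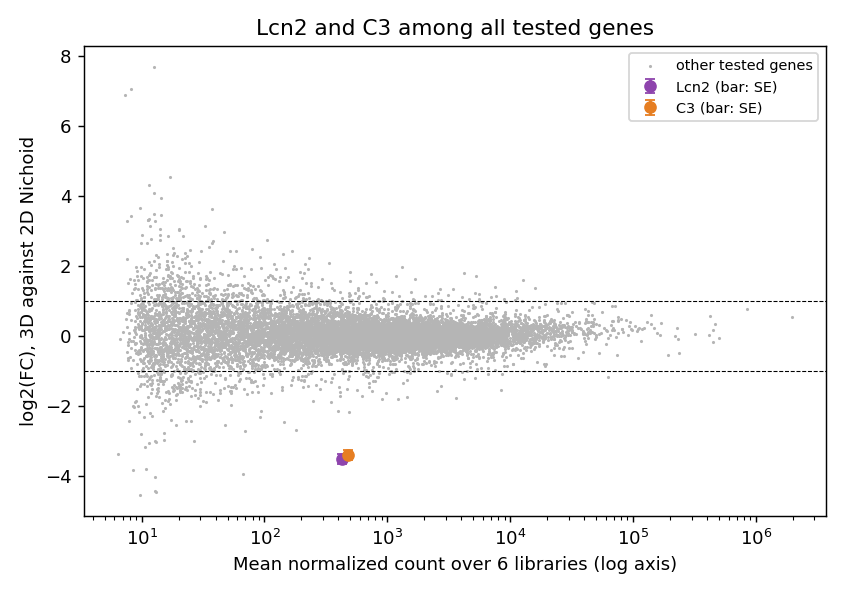
log2(FC), 3D against 2D Nichoids, of each tested gene against its mean normalized count over the 6 libraries (log axis), with Lcn2 and C3 in colour, their SE as bars, and dashed lines at the cutoffs of 1 and -1. Lcn2 and C3 lie side by side at -3.53 and -3.40, apart from the other genes of similar count.

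The depth behind the values differed between the groups. The 3 libraries together held 201 reads of Lcn2 in 3D Nichoids and 2396 in 2D Nichoids, and 248 and 2697 reads of C3. With counting error alone, the fold of the pooled reads had a 95% exact Poisson interval of 10.02 to 13.4 for Lcn2 and 9.27 to 12.1 for C3. Such an interval treats each read as an independent molecule, and the removal of PCR copies is not described in the sources used here. In 3D Nichoids 16.4% of the tested genes had fewer CPM than Lcn2 and 18.3% fewer than C3, while in 2D Nichoids the shares were 51.1% and 53.9%. These shares rank read counts, which grow with the length of a transcript, and do not compare the levels of Lcn2 and C3 with those of other genes.

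The spread between replicate libraries was small beside the difference between the groups. For 3D Nichoids the coefficient of variation of normalized counts, the SD as a percent of the mean, was 9.30% for Lcn2 and 4.16% for C3. The median over genes of similar count, from 0.8 to 1.2 times that of the member, was 20.6% and 18.8%. In 2D Nichoids the coefficient was 6.17% for Lcn2, against a median of 7.66%, and 10.3% for C3, against 6.93%. For the mean counts in 3D Nichoids, the sampling of independent reads alone would give 12.2% for Lcn2 and 11.0% for C3. The variance there was 0.586 times the mean for Lcn2 and 0.145 times for C3, below the ratio of 1 that such sampling gives, so the SD of 3 libraries may understate the error of the 3D Nichoid values. C3 in 2D Nichoids was the only one of these 4 values above its median, and 76.5% of genes of similar count varied less. Its variance was 9.42 times its mean there, with replicate B low and replicates A and C high. Lcn2 had its lowest 2D Nichoid value in replicate A, so the members did not share the same low library.

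The amount of C3 relative to Lcn2 within a library is free of library scaling. For each read of Lcn2 the 3D Nichoid replicates had 1.30 (A), 1.36 (B) and 1.07 (C) reads of C3, and the 2D Nichoid replicates had 1.29 (A), 0.974 (B) and 1.13 (C). The ranges of the groups overlapped. The means were 1.24 ± 0.155 (SD, n = 3) and 1.13 ± 0.157 (SD, n = 3), a difference of 0.14 on the log2 scale, under the pooled SD of 0.19 within groups. That comparison rested on single libraries, since the log2 difference was 0.25 without 3D Nichoid replicate C and 0.24 without 2D Nichoid replicate A, both above that SD, and 0.04 without 2D Nichoid replicate B and 0.07 without 3D Nichoid replicate B. The SD, taken from all libraries throughout, is the spread of single libraries and not the error of a difference of means. That error and the counting error of the ratio were not computed. The ratio does not say which transcript was more abundant, since transcript lengths were not used here.

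Each member was the gene whose profile was most like that of the other. Likeness was the root mean square distance between profiles over the 6 libraries, each profile being log2 CPM minus its own mean. Lcn2 and C3 lay 0.17 apart on this log2 scale, the smallest distance for either among the 11604 genes compared, all of which had at least 50 normalized counts on average. The median distance of the compared genes was 1.75 from Lcn2 and 1.69 from C3. Because the distance depends on the size of the difference between the groups, and few genes fell as far, it reflects mostly that difference, which had already chosen Lcn2. Within the groups the centred values of Lcn2 stayed between -1.83 and -1.60 for the 3D Nichoid libraries and between 1.65 and 1.82 for the 2D Nichoid libraries, and those of C3 between -1.74 and -1.63 and between 1.51 and 1.78. The order of the libraries within a group was not shared. In 3D Nichoid replicate C, Lcn2 was at its highest value of that group and C3 at its lowest. In 2D Nichoid replicate A, Lcn2 was at its lowest value of that group and C3 at its highest.

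After the other member, the same 2 genes came next for both, given by identifier because no symbol was paired with them here. ENSRNOG00000015992 lay 0.46 from Lcn2 and 0.43 from C3. Its counts were 58, 35 and 50 for the 3D Nichoid libraries (A, B, C) against 326, 343 and 286 for the 2D Nichoid libraries, which gave a log2(FC) of -2.70. Its difference between the groups was smaller than that of either member. ENSRNOG00000017484 lay 0.57 from Lcn2 and 0.55 from C3, and its counts of 29, 9 and 16 against 119, 130 and 117, in the same order, gave a log2(FC) of -2.72. Its 3D Nichoid counts were scattered more widely than those of Lcn2 or C3. These genes were picked by likeness in the same libraries, so their values are a description as well.

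**Figure D4:**
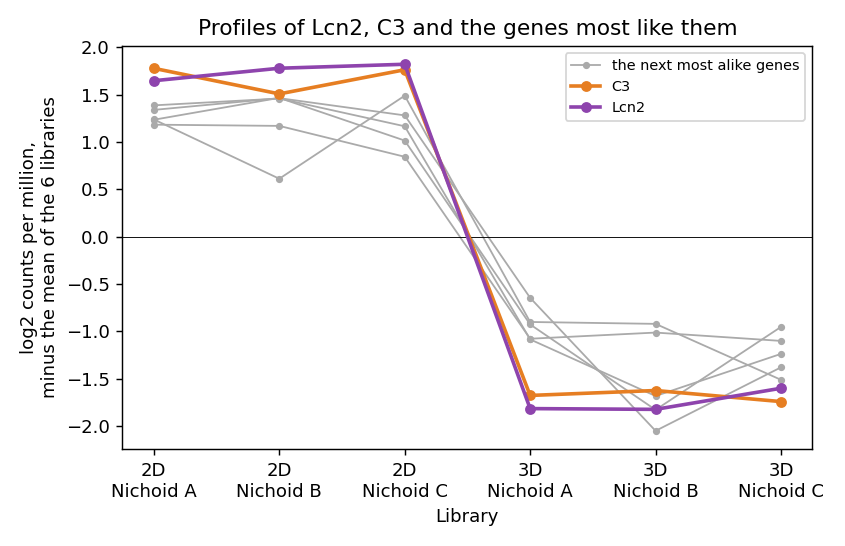
log2 CPM minus the mean of the 6 libraries, for Lcn2, C3 and the genes nearest to them, in each library (lines join the values of 1 gene, and the libraries have no order). Lcn2 and C3 share the step between the groups but not the order within them, which in 3D Nichoids lies within counting error. They lie between 1.51 and 1.82 for 2D Nichoids and between -1.83 and -1.60 for 3D Nichoids, and the other genes span a smaller difference.

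The values of both members moved little with the processing. When single libraries were left out, Lcn2 had a log2(FC) from -3.61 to -3.49 and C3 one from -3.48 to -3.35. No single library decided either value. In the GRCr8 gene table of RefSeq, 0 genes overlapped Lcn2 and 0 overlapped C3, which were flanked by Bbln and Ptges2 and by LOC134480441 and Gpr108. Reads shared with an overlapping gene in the annotation used for counting were not tested.

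**Figure D5:**
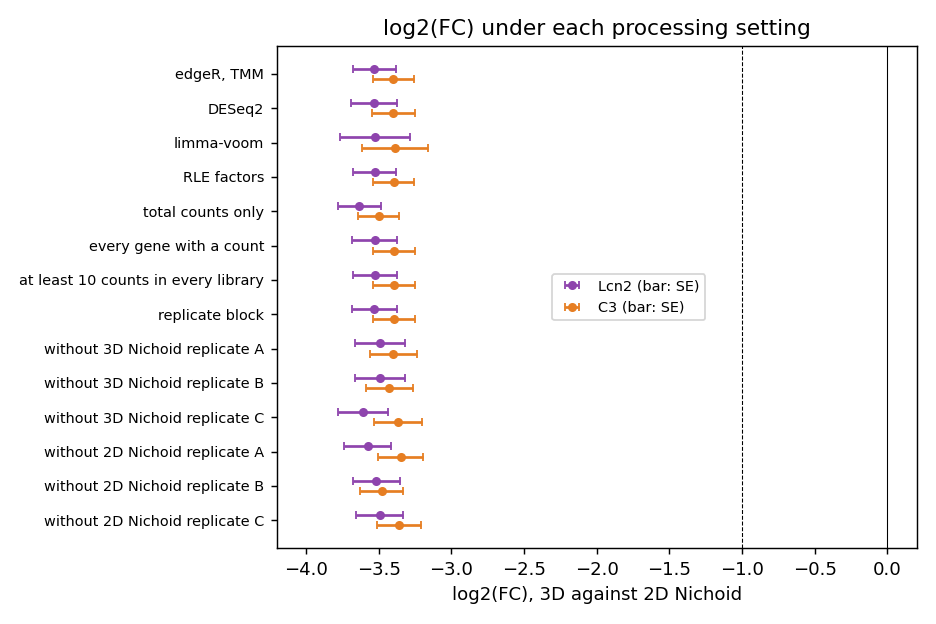
log2(FC) of Lcn2 and C3, 3D against 2D Nichoids, with the SE as bars, under edgeR with TMM, 7 other settings and each library left out in turn. All values lie between -3.63 and -3.35, with lines at 0 and at the cutoff of -1.

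The libraries held between 38353363 and 41860684 counts in total, with overlapping ranges in the groups. TMM factors lay between 0.963 and 0.967 for the 3D Nichoid libraries and between 1.03 and 1.04 for the 2D Nichoid libraries. Replicate pairs differed by more than the sampling of reads, with a chi-square per gene of 3.76 to 7.77, where sampling alone gives about 1. Other acute-phase proteins, complement components and regulators, lipocalins, iron-handling genes, cytokines, NF-kappaB factors and markers of leukocytes and adipocytes were not analysed here, because their symbols could not be matched to identifiers. Whether cells of another type contributed to the reads of Lcn2 or C3 was not tested.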

How the data were processed

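Total RNA of rBMSCs was isolated at day 4, and libraries made from it with an mRNA-Seq kit were sequenced, 3 per group. The deposited values are raw counts of reads per Ensembl gene. The authors checked single-end reads with FastQC 0.11.9, mapped them with STAR 2.7.0a and counted them with HTSeq. The labels name HTSeq 0.12.4 and build Rnor_6.0, whereas the paper names a later HTSeq version and build. Strand handling is not given in the sources used here.

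Counts of all genes were analysed in R 4.3.3 with edgeR 4.0.16 (filterByExpr, TMM, robust quasi-likelihood test, Benjamini-Hochberg adjustment, no covariates), and the SE is the log2(FC) over the root of F. The procedure was run on simulated counts in which all genes had the same variability beyond the sampling of reads. That run therefore does not measure its error rates in these data. Alternative fits used DESeq2 1.42.0 and limma 3.58.1 on the genes kept by filterByExpr, and DESeq2 without its own filter on low counts. Normalized counts were divided by DESeq2 size factors. Likeness used a prior count of 2.

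The members, gene lists and alternatives were chosen with earlier results of these data known. The rule for named genes took both members, called or abundant genes of 14 lists, and the 5 genes most like each member, with at most 2 identifiers per direction. The gene table held 0 Ensembl identifiers, so the lists were not used. Promoters were matched by symbol (2 of 2). With 3 libraries per group, an exact permutation test cannot go below p = 0.1.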

Additional observations from a re-analysis of the deposited data

How the results depend on the processing

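The log2(FC) of Lcn2 ranged from -3.63 to -3.53 and that of C3 from -3.50 to -3.39 under the 7 settings other than leaving out a library, and each stayed within 1 SD between replicates of its value. The lowest values came with total counts only, under which the log2(FC) over all tested genes had a median of -0.108 in place of -0.006. That scaling also moved the share of DEGs that were higher in 3D Nichoids from 60.0% of 463 to 47.5% of 453. The number of DEGs was 489 with DESeq2, 555 with limma-voom, 382 with at least 10 counts in every library, and 397 to 515 without one library. In the fit with a replicate block, A, B and C as a factor, the log2(FC) was -3.53 for Lcn2 and -3.40 for C3, and 466 DEGs were found. The letters are not stated to pair cultures, so they were not taken as pairs. Deviations of libraries with the same letter correlated at 0.03, -0.01 and 0.02. These values weigh all tested genes alike, those of few reads included, and cannot show whether the letters pair cultures. The SE of the log2(FC) depended on the method. For Lcn2 it was 0.149 with edgeR, 0.159 with DESeq2 and 0.243 with limma-voom. For C3 it was 0.140, 0.151 and 0.228, so the ranges given for 1 SE are wider with limma-voom.

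The log2 difference in the ratio of C3 to Lcn2 reads was 0.14, and 0.04 to 0.25 with one library left out, above the SD of 0.19 without 3D Nichoid replicate C or 2D Nichoid replicate A. The members remained nearest to each other in likeness in the 9 settings tried, all chosen after seeing the data. The alternatives for counts per gene list were not run, since symbols could not be matched. The 3D Nichoid values rest on 61 to 86 reads per library.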
